A study of Mus musculus with 8 samples.

Results

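The 78 genes described here encode the protein subunits of the mitochondrial ribosome and were picked by name from the 41018 genes of the deposited table. A symbol was taken when it began with Mrpl or Mrps, went on with a number, and ended there or with a single letter a, b or c. The choice used no measured value. The rule found 49 Mrpl genes, named after the large subunit, and 29 Mrps genes, named after the small subunit.

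The mitochondrial ribosome translates the few messenger RNAs of the mitochondrial genome, which code for core subunits of the respiratory chain and of ATP synthase. Its ribosomal RNAs are made inside the organelle, whereas each of its proteins is encoded in the nucleus, made in the cytosol and imported. Many of the proteins have a counterpart in the bacterial ribosome, and others are found only in mitochondria. CD11b is an integrin subunit on neutrophils, monocytes and macrophages. Mature neutrophils are known for their reliance on glycolysis and their sparse mitochondria.

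The libraries were 4 of PC-EV-educated mice and 4 of PBS mice. PC-EVs are extracellular vesicles of PAN02 cells, a mouse pancreatic cancer line, and "education" is the name given to their repeated injection into the eye's venous sinus. The PC-EV mice received 5 µg of vesicles 3 times a week for 3 weeks, and the PBS mice received phosphate-buffered saline on the same plan, although the labels call that group untreated. All mice were C57BL/6 females aged 5 to 8 weeks that carried no engineered allele and no tumour as far as the sources state. Samples of these cells that went to quantitative PCR were pools of several animals, and for the sequenced samples pooling is not stated. CD11b+ cells were taken from femur and tibia marrow with magnetic beads, and their RNA was sequenced with strand kept and ribosomal RNA depleted.

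The value used for every gene is its Max group mean, hereafter its level: the larger of the PC-EV mean and the PBS mean, each over 4 samples, as the authors computed it. Which group gave it was not worked out here, because the authors' own comparison columns were not used, and it carries no SD. Values of single samples and the difference between PC-EV and PBS mice were not analysed here, so no statement below compares the treatments. A level describes only the group with the higher mean, which can be a different group from gene to gene. Whether neighbours in the order of levels differ beyond the spread between samples was not tested.

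The table does not name the unit of the level, but its lowest values show it. Among genes with the same locus in GENCODE vM21, 4350 had a level multiplied by summed exon length in kilobases of under 0.0075, and 4278 of them (98.3%) sat on 8 separate values between 0.00467 and 0.00592, as many values as there are libraries. Each is what a single read pair or read, here a fragment, in a single library adds to a mean over 4. The level is therefore per kilobase of exon and scaled to library size. How it compares between genes depends on the length used, here the summed exon length of all annotated isoforms. The largest of the 8 values was 1.27 times the smallest, so the library sizes used for scaling differed by no more than that factor. If the scale is the usual RPKM, these sizes are the depths, and the libraries held about 42200000 to 53500000 fragments each. The median member rested on 1194 to 1513 fragments over the 4 samples, depending on which libraries they were. Mrps6 rested on the fewest, 177 to 224, for which counting alone gives a relative error of up to 7.52%.

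The sorted cells carried myeloid transcripts, and neutrophil markers had the highest median of the marker lists (3548). S100a9 and S100a8, calcium-binding proteins of neutrophils, stood at 42151 and 19134. Markers of granulocyte precursors spanned 24.8 (Ctsg) to 226 (Elane), and those of macrophages 10.1 (Mrc1) to 34.7 (C1qa). Of the genes listed for monocytes, Ccr2 stood at 24.6, Csf1r at 40.6 and Ly6c2 at 189. Fcnb (243) was listed with them but is not particular to monocytes. Markers of B cells (0.264 to 1.78), T cells (0.109 to 1.97), megakaryocytes (0.603 to 0.815), endothelium (0.0238 to 1.95) and fibroblasts (0.0353 to 0.756) were low, while Nkg7 of NK cells reached 17.1 and Hbb-bs of erythroid cells 57.6. A level in bulk RNA sums over all these cells, so fewer cells of a type and less RNA per cell cannot be told apart. Itgam, the gene of CD11b itself, was not analysed here.

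Sequences around the starts of some of these genes are shown first, to give examples of promoter letters that the name rule did not use. All come from RefSeq on GRCm38.p6, are written 5′ to 3′ on the gene's strand, and carry the motif in capitals. The bases just before the Mrpl22 start hold both an ETS motif, the site type bound by GABP (also named NRF-2), and an NRF1 motif. NRF1 and GABP are transcription factors known for nuclear genes of mitochondrial proteins. Mrpl22 is an exit-tunnel protein on chromosome 11, and the stretch spans chr11:58171414-58171663 on the + strand.

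Mrpl22: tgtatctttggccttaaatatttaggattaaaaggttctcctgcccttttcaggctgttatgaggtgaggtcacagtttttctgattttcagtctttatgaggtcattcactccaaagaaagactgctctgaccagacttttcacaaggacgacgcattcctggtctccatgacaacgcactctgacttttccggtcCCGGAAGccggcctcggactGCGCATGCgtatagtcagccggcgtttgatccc

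Short ETS sites from the top and the bottom of the order of levels are shown to let them be compared. They lie at chr3:95871478-95871507 (- strand) for Mrps21, chr19:45006436-45006465 (- strand) for Mrpl43, chr5:31613937-31613966 (+ strand) for Mrpl33 and chr9:98601672-98601701 (- strand) for Mrps22. The first of them reads the motif on the opposite strand.

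Mrps21: cgtagcttccgCTTCCGGtccgcagagacc
Mrpl43: caaccccggaaCCGGAAGtcaccggttagt
Mrpl33: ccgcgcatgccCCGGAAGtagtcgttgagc
Mrps22: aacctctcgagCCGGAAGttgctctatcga

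The letters of the YY1 motif contain an ATG, and in 6 genes the ATG of a promoter-window match was the annotated start codon. YY1 is a zinc-finger factor that binds near many start sites. These sites span chr11:115604147-115604176 (+ strand) for Mrps7, chr17:46111004-46111033 (+ strand) for Mrps18a, chr13:99344789-99344818 (+ strand) for Mrps27, chr11:5707652-5707681 (- strand) for Mrps24, chr19:6057721-6057750 (- strand) for Mrpl49 and chr6:71823743-71823772 (- strand) for Mrpl35.

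Mrps7: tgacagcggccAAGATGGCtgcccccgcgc
Mrps18a: aggtgcgttccAAGATGGCggccctcaggg
Mrps27: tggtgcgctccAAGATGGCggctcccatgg
Mrps24: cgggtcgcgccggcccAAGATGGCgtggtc
Mrpl49: gttgaggcgccAAGATGGCagcagcggtgt
Mrpl35: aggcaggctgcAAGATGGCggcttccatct

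Every one of the 78 genes had a level above 0, as did 28225 genes of the table. The median was 2.76, the quartiles were 1.42 and 5.77, and the range ran from 0.534 (Mrps10) to 32.5 (Mrps21), a 60.9-fold span. A level of at least 1 was reached by 88.5% of them, against 39.5% of the 21857 protein-coding genes listed. Nearly all of them lay above the median of the protein-coding genes above 0, a set whose lower quartile was 0.0105. Of the 78, 77 exceeded 0.568, the median of the 18992 protein-coding genes above 0, and 23 (29.5%) were above the upper quartile of those genes, near the 25% of all such genes that lie there. Their median sat at percentile 76.5 of all genes above 0 and 66.4 of the protein-coding ones, but at 28.1 of the genes of level 1 or more. Summed, their levels came to 339, which is 0.0839% of the table's summed level, and Mrps21 alone gave 9.58% of that sum.

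**Figure D1:**
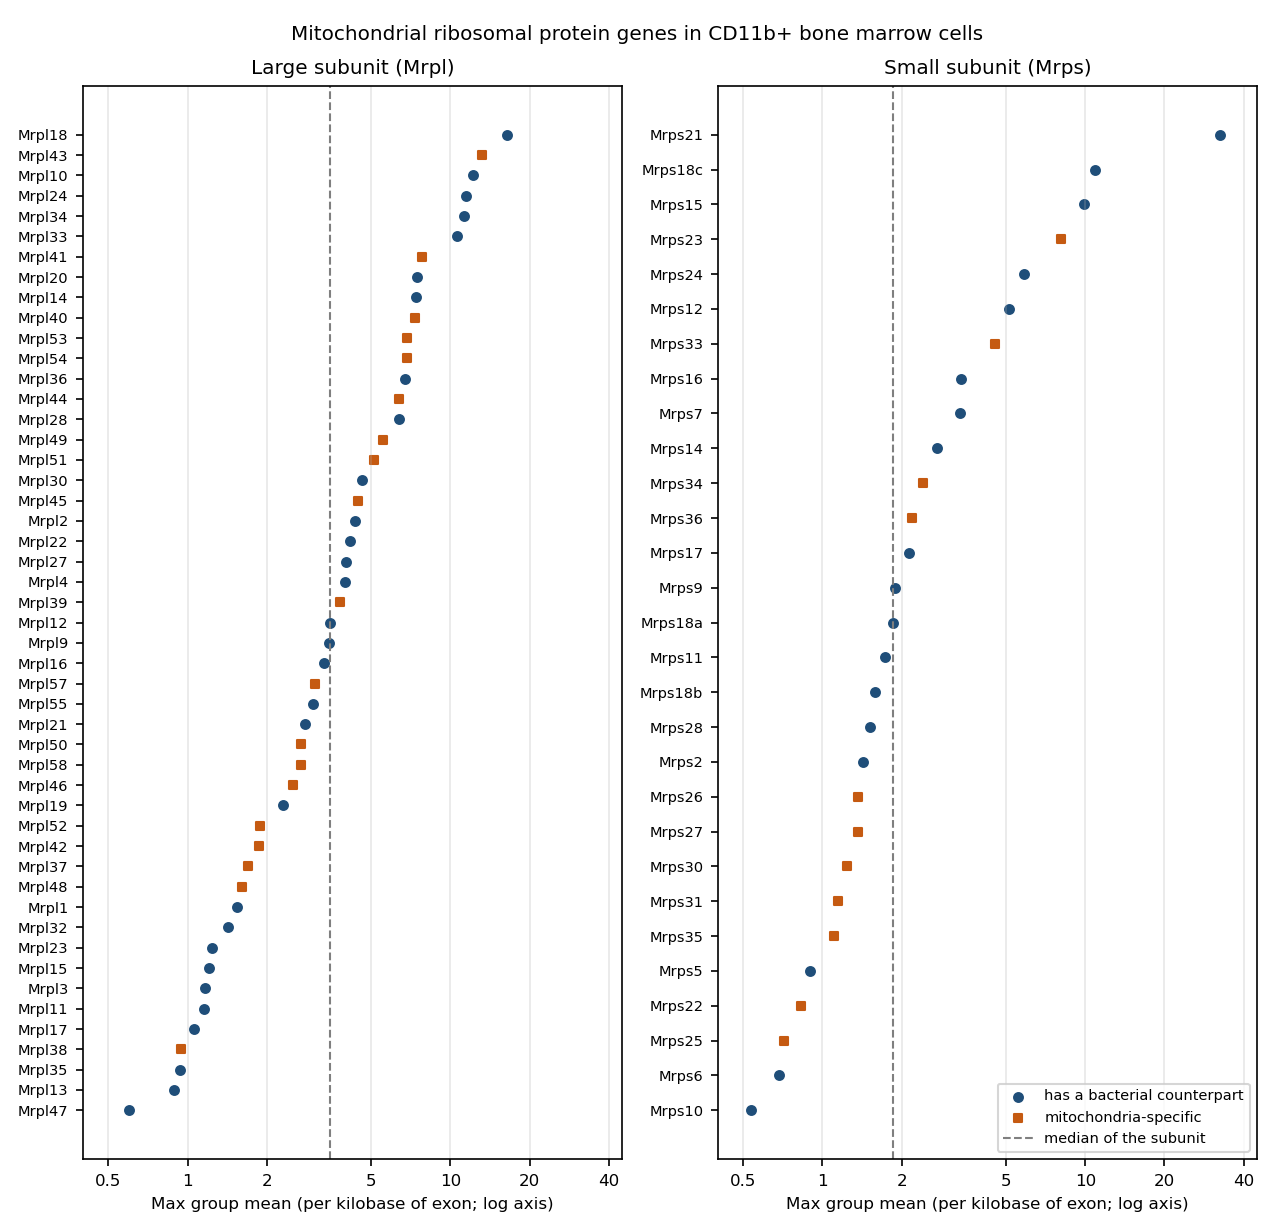
Level (Max group mean, per kilobase of exon, log axis) of each of the 49 Mrpl and 29 Mrps genes, ordered within each subunit. Circles are proteins with a bacterial counterpart, squares are mitochondria-specific proteins, and the dashed line is the subunit's median, 3.48 for the large subunit and 1.85 for the small subunit. Mrps21 (32.5) stands apart at the top.

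By name, the large subunit had a median of 3.48 and the small subunit 1.85, a ratio of 1.88. The ranges overlapped throughout most of their length, 0.600 to 16.3 in the large subunit and 0.534 to 32.5 in the small one. Levels under 2 were held by 15 of 49 large and 16 of 29 small subunit genes. A few names depart from the structure. Mrps30 (1.23) and Mrps18a (1.85) are built into the large subunit, and Mrps36 (2.20) is known as a component of the α-ketoglutarate dehydrogenase complex. Moving the first pair and leaving out Mrps36 gave medians of 3.46 and 1.81.

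Among Mrpl genes, grouped by name, the median was 3.47 for proteins with a bacterial counterpart (30 genes) and 3.80 for mitochondria-specific ones (19 genes). Mrpl18, a protein of the central protuberance, was the highest large subunit gene at 16.3 (ENSMUSG00000057388, chr17:12911349-12916345). Mrpl10 stood at 12.2, Mrpl24 at 11.5, Mrpl34 at 11.3 and Mrpl33 at 10.6. Mrpl43 (13.1) and Mrpl41 (7.77) were the highest mitochondria-specific ones. The 10 highest were completed by Mrpl20 (7.49), Mrpl14 (7.41) and Mrpl40 (7.34). These 10 genes therefore joined bacterial-type core proteins with proteins added in mitochondria.

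At the other end, Mrpl47, which sits near the exit of the polypeptide tunnel, was lowest at 0.600 (ENSMUSG00000037531, chr3:32725397-32737605). Mrpl13 (0.886), Mrpl35 (0.938) and Mrpl38 (0.945) were also under 1. The 10 lowest were completed by Mrpl17 (1.06), Mrpl11 (1.16), Mrpl3 (1.17), Mrpl15 (1.21), Mrpl23 (1.24) and Mrpl32 (1.43). Mrpl38 was the lone mitochondria-specific protein among those 10.

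Genes of proteins from the same region of the particle differed widely in level. In the stalk, where translation factors dock, Mrpl10 (12.2) was 10.6 times as high as Mrpl11 (1.16), and Mrpl12, which the particle holds in several copies, was at 3.48. Of the 6 proteins around the polypeptide exit, Mrpl24 had 11.5, Mrpl45 4.43, Mrpl22 4.14, Mrpl23 1.24, Mrpl17 1.06 and Mrpl47 0.600. Mrpl45 is the protein that contacts the inner membrane. The 6 proteins listed for the central protuberance spanned 0.945 (Mrpl38) to 16.3 (Mrpl18), with Mrpl58, a peptidyl-tRNA hydrolase built into the ribosome, at 2.70.

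Among the Mrps genes, grouped by name, those with a bacterial counterpart (18 genes, with Mrps18a) had a median of 2.01. The mitochondria-specific ones (11 genes, with Mrps30 and Mrps36) had 1.37. Mrps21, a small bacterial-type protein, had the highest level of all 78 genes, 32.5 (ENSMUSG00000054312, chr3:95862634-95871519), 1.99 times that of Mrpl18. It rested on 4061 to 5145 fragments. It was followed by Mrps18c (10.9), Mrps15 (9.86) and Mrps23 (8.06), of which Mrps23 is mitochondria-specific. Mrps24 (5.85), at the messenger RNA entry, and Mrps12 (5.13), a protein of the decoding centre, came next. The 10 highest were completed by Mrps33 (4.55), Mrps16 (3.37), Mrps7 (3.34) and Mrps14 (2.73).

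Mrps10 had the lowest level of all, 0.534 (ENSMUSG00000034729, chr17:47368887-47381417), followed among the Mrps genes by Mrps6 (0.683), Mrps25 (0.715), Mrps22 (0.830) and Mrps5 (0.894). In humans, variants of MRPS22 cause a disorder of mitochondrial translation. Mrps35 (1.11), Mrps31 (1.15), Mrps30 (1.23), Mrps27 (1.37) and Mrps26 (1.37) completed the 10 lowest, and 7 of these 10 are mitochondria-specific.

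Mammals have 3 Mrps18 paralogs, all related to a single bacterial protein. Mrps18c had a level of 10.9, against 1.85 for Mrps18a and 1.59 for Mrps18b. Mrps18c was thus 5.89 times as high as Mrps18a per kilobase of exon, although their summed exon lengths, 1076 and 3690 bases, differ. Per length of the mRNA with the longest coding sequence the levels were 18.4, 7.73 and 3.07, a smaller gap of 2.38 times between Mrps18c and Mrps18a.

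A relation between level and length was seen over the whole group. Spearman's rho between level and summed exon length was -0.65 over the 78 genes, which share the same libraries, against -0.14 over the 8638 protein-coding genes of level 1 or more and 0.10 over the 18992 above 0. The 26 shortest genes, with 607 to 1664 exonic bases, had a median level of 6.37. The middle 26 had 3.32, and the 26 longest, with 3332 to 8631 bases, had 1.31. Mrpl33 was the exception among the longest at 10.6, and Mrps6 among the shortest at 0.683. Summed exon length counts every annotated isoform and long 3′ end, used or not. Rescaled to the mRNA with the longest coding sequence, levels had a rho of -0.47 with summed exon length and of -0.62 with the mRNA length itself. Both scales divide by a length, which alone can make a level fall with that length. The values -0.65 and -0.62 therefore cannot show whether fragment number changes with length, which was not tested. Of the 10 highest genes 8 were shared between both scales, and of the 10 lowest 6. On that scale Mrps21 (49.3) remained highest, whereas Mrps25 (0.774) was lowest and Mrps10 was at 4.24.

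**Figure D2:**
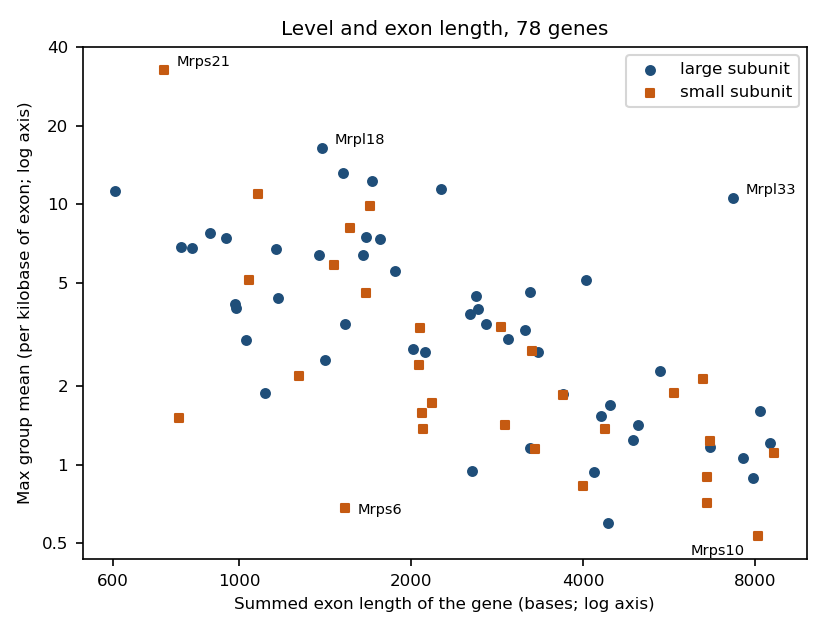
Level (Max group mean, per kilobase of exon) against summed exon length in bases for the 78 genes, both on log axes, with circles for the large and squares for the small subunit. Levels fall with length over the 78 points (Spearman's rho -0.65), with Mrpl33 above and Mrps6 below the bulk. A level is itself divided by this length.

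Short coding sequences are common to the group. The longest coding sequence of a gene had a median of 582 bases over the 78 genes, between 261 and 1326, against 1176 over all protein-coding genes. Their annotated exons numbered 2 to 12, with a median of 5.

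Factors and enzymes of mitochondrial translation had lower median levels than the ribosomal proteins. Of 7 mitoribosomal proteins listed under other names, 5 had a row under that name, with a median of 3.17, from 1.14 (Gadd45gip1) to 19.97 (Aurkaip1). The remaining names, Mrp63 and Ict1, are older symbols of Mrpl57 (3.04) and Mrpl58, which the name rule already holds. Dap3, a GTP-binding protein of the small subunit, stood at 3.17. Mitochondrial translation factors (15 genes) had a median of 1.34, from 0.463 for Mrrf, the ribosome recycling factor, to 5.79 for Tufm, the elongation factor that delivers tRNAs. Mitochondrial aminoacyl-tRNA synthetases (17 genes) had a median of 0.870, from 0.142 (Nars2) to 2.21 (Hars2). The 22 assembly and rRNA-modifying factors had a median of 1.06. Their lowest, Mrm3, an rRNA methyltransferase, was at 0.260, and their highest, Rbfa, a small subunit assembly factor, at 50.3, above every one of the 78 genes. Levels of at least 1 were reached by 60.0% of the factors, 41.2% of the synthetases and 54.5% of the assembly factors, against 88.5% of the 78 genes.

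The RNAs on which this ribosome acts were far more abundant. The 13 protein genes of the mitochondrial genome had a median of 171, from 32.5 (mt-Nd6) to 911 (mt-Co1), so that the lowest of them matched Mrps21. The mitochondrial ribosomal RNAs, mt-Rnr1 (11.4) and mt-Rnr2 (14.0), were measured in libraries depleted of ribosomal RNA, and their levels say nothing of the number of ribosomes. These levels, like those of the 13 protein genes, are the mean of the higher group only, and the other group was not analysed here. Proteins of the cytosolic ribosome (82 genes) had a median of 64.1, which is 23.2 times that of the 78 mitochondrial ones. They ranged from 0.0149 (Rpl10l, a testis paralog) to 339 (Fau), and 20 of the 82 were below Mrps21.

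**Figure D3:**
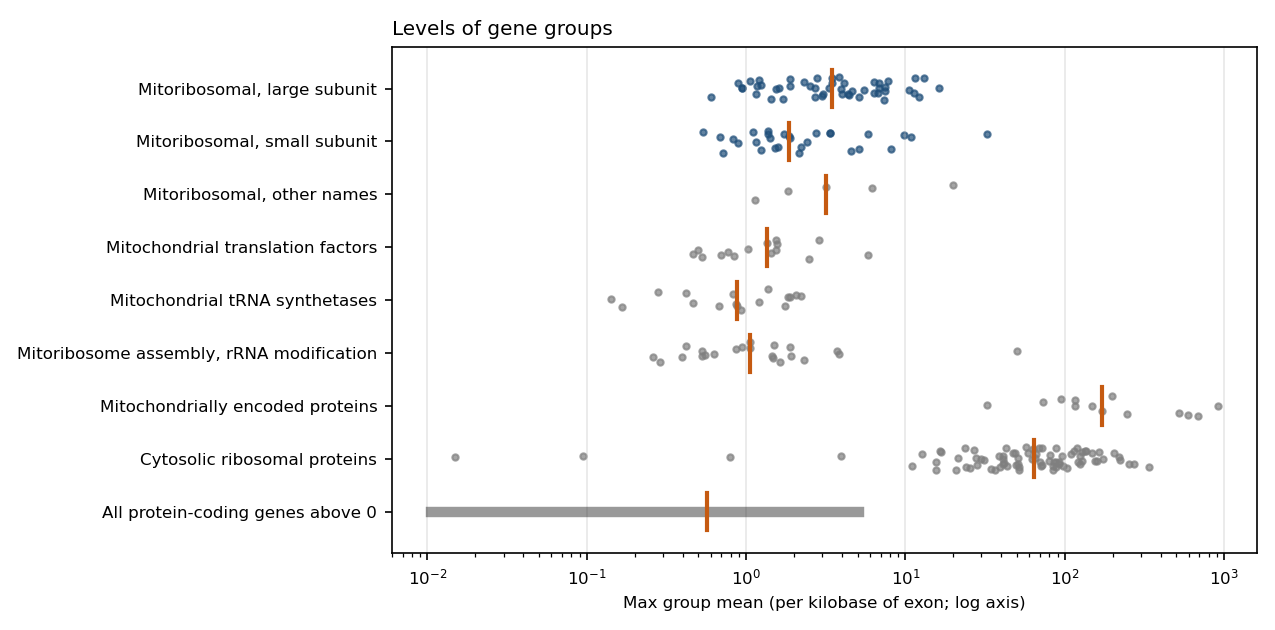
Level (Max group mean, per kilobase of exon, log axis) of single genes, shown as points, in the mitoribosomal and related groups, with an orange line at each median. The grey bar runs between the quartiles of all protein-coding genes above 0. The mitoribosomal medians (3.48 and 1.85) lie above those of the translation factors (1.34) and tRNA synthetases (0.870) and below that of the cytosolic ribosomal proteins (64.1).

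The genes were spread over 17 chromosomes. Chromosome 11 held 11 of them (14.1%, against 7.91% of protein-coding genes above 0) and chromosome 17 held 8, while chromosomes 12, 18, X and Y held none. Mrps11 and Mrpl46 were the only members found next to each other. They run in opposite directions on chromosome 7, their loci (78783119-78792989 and 78775236-78783531) overlap by 413 bases, and their levels were 1.73 and 2.52.

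Starts that lie back to back with another gene were frequent. A protein-coding gene on the opposite strand began within 500 bases of the start of 25 of the 78 genes (32.1%), against 10.0% of protein-coding genes above 0 and 15.5% of those of level 1 or more. Several partners also work in mitochondria. Mrps12 (5.13) faced Sars2 (0.859), the mitochondrial seryl-tRNA synthetase, and Mrpl43 (13.1) faced Twnk (0.787), the helicase of mitochondrial DNA. Mrpl36 (6.69) faced Ndufs6 (12.8), a complex I subunit. Other partners have no such role. Mrpl49 (5.52) faced Fau (339), whose product includes a cytosolic ribosomal protein, and Mrpl32 (1.43) faced Psma2 (13.3), a proteasome subunit. The partner was the higher of the pair for 10 of the 25 genes.

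Loci that share bases limit some of these values. Of the 78 genes, 38 overlapped another gene and 12 overlapped one on the same strand, where strand-specific reads do not separate them. The same-strand partner was protein-coding for 4: Gm42688 over all 900 bases of Mrpl53, Urgcp at Mrps24, Slc5a3 at Mrps6 and Nme3 at Mrps34. The levels of these 4 genes, 6.85, 5.85, 0.683 and 2.41, are uncertain for that reason. The coding sequences of 19 genes also matched another annotated gene at 95% identity or more over at least 150 bases, hereafter a copy. Most copies are processed pseudogenes: Mrps36 had 4, Mrps16 had 2, and Mrps21 and Mrps10 had 1 each. For Mrpl43 the match was Twnk, the gene it faces (100% over 239 bases), so it need not be a copy at another place. For Mrps6 it was an unnamed protein-coding gene (100% over 186 bases), whose position was not examined here. No source used here gives the handling of reads that map to several places, so levels of genes with a copy at another place are uncertain as well. Without all 19 genes the median level was 3.01. Overlaps and copies were sought for the 78 genes only. Genes set beside them, such as Rbfa and the cytosolic ribosomal proteins, were not checked for either.

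Promoter windows, 250 bases before to 50 after the start, were found in RefSeq for 69 of the 78 genes and for 27025 genes in all. Exact letters were searched on both strands. CCGGAAG (ETS) occurred in 26 of the 69 genes (37.7%), against 23.4% of the 6985 genes of level 1 or more and 9.93% of all genes. AAGATGGC (YY1) occurred in 12 (17.4%), against 6.13% and 3.19%. GCGCATGC (NRF1) occurred in 8 (11.6%), against 6.50% and 3.05%. The exact binomial 95% intervals of the shares among the 69 genes were 26.3 to 50.2% for ETS, 9.32 to 28.4% for YY1 and 5.14 to 21.6% for NRF1. They cover counting error only, and the NRF1 interval holds the share of the genes of level 1 or more. At least 1 of these 3 was present in 38 of the 69 genes (55.1%), against 32.4% of genes of level 1 or more and 14.9% of all genes. 8 genes held 2 of the 3 kinds, among them Mrpl22, Mrpl33 and Mrps18a, and none held all 3. None of the 3 was found in 31 of the 69 genes (44.9%).

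The other letters searched gave a different picture. GGGCGG (Sp1), a GC-rich element of many housekeeping promoters, occurred in 34 genes (49.3%), which is below its share among genes of level 1 or more (69.9%) and above that among all genes (38.2%). With the shorter letters GGCGG the difference from genes of level 1 or more was lost (87.0% against 86.1%). TATAAA occurred in 5 genes (7.25%), against 8.25% and 15.7%. The NRF1 letters nearly read the same on both strands, so a single site can match on each. The Sp1 letters can share bases with an ETS match, as they do at Mrpl17. A match is a run of letters and not a measured binding site.

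**Figure D4:**
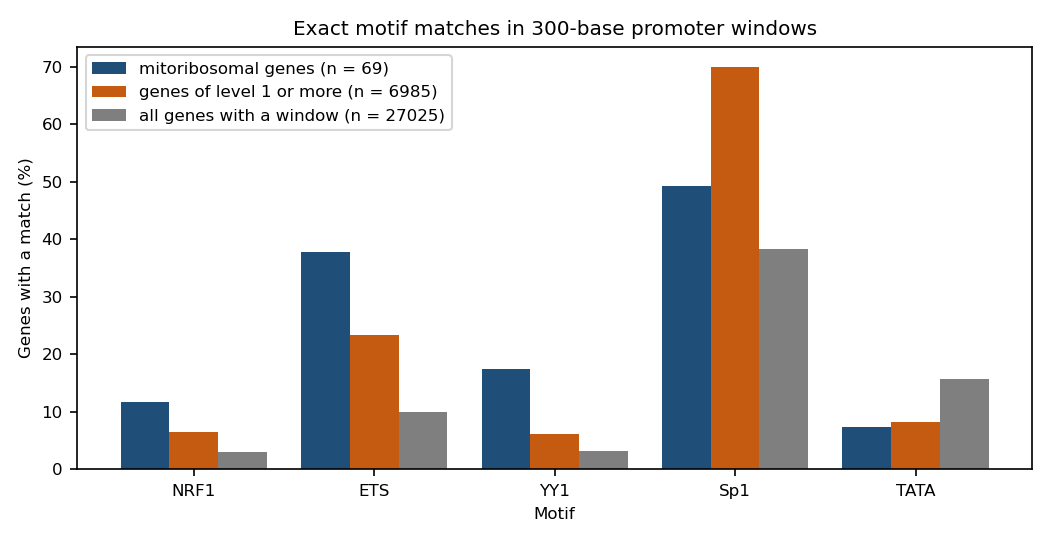
Share of genes (%) with an exact match to each motif in the 300-base window, for 69 mitoribosomal genes, 6985 genes of level 1 or more and all 27025 genes with a window. ETS (37.7%) and YY1 (17.4%) are more frequent in the mitoribosomal genes than in either other set, while the 95% interval of the NRF1 share (5.14 to 21.6%) holds that of genes of level 1 or more. Sp1 (49.3%) is less frequent than in genes of level 1 or more, a difference that is lost with its shorter letters.

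The matches differed in side and strand. Of 31 ETS matches, 28 began between 100 bases before the start and the window's end, and 17 were on the gene's strand and 14 on the other. Cut to that stretch, 23 of the 26 genes with an ETS match kept one, against 1293 of 1634 genes of level 1 or more, so most ETS matches lay there in both sets. Of 66 Sp1 matches 40 began in that stretch, and of 5 TATAAA matches 1. All 8 YY1 matches on the gene's strand began after the start, 12 to 37 bases into the gene, and the 4 on the other strand all lay before it. Over all 78 genes, 10 (12.8%) had the YY1 letters across their annotated start codon, as in the Mrps7 and Mrps18a sequences above, against 4.11% of protein-coding genes of level 1 or more and 2.33% of all 21857. The 10 include Mrps10, Mrpl38, Mrps18b and Mrpl46 beside those shown.

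**Figure D5:**
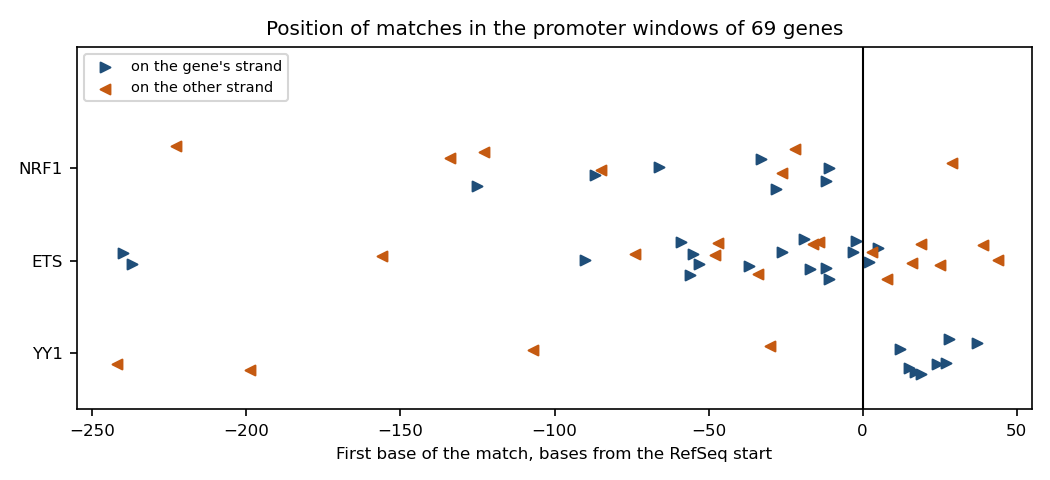
Position of each match, in bases from the RefSeq start (vertical line), for the NRF1, ETS and YY1 letters in the windows of 69 genes; triangles point right for the gene's strand and left for the other. The 8 YY1 matches on the gene's strand all lie after the start, 12 to 37 bases in, whereas 28 of 31 ETS matches lie within 100 bases before the start or after it.

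Holding a motif did not separate high from low genes. The 26 genes with an ETS match had a median level of 3.69, from 0.830 (Mrps22) to 32.5 (Mrps21), against 2.73 for the 43 without. The 8 with an NRF1 match had a median of 3.63, from 1.06 (Mrpl17) to 12.2 (Mrpl10), against 3.01 for the 61 without. The 12 with a YY1 match had a median of 1.86, from 0.938 (Mrpl35) to 6.69 (Mrpl36), against 3.29 for the 57 without. For the 34 with an Sp1 match the median was 2.63, against 3.48 for the 35 without. The ranges with and without each motif overlapped.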

How the data were processed

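RNA of CD11b+ BM cells of 4 PC-EV and 4 PBS samples was sequenced by the authors, who aligned it to GRCm38 and fitted a negative binomial model after edgeR. The submitters' notes name edgeR without a version. Their aligner, gene annotation and low-value filter were not given in the sources used here. For each gene, the deposited table holds a Max group mean, of a unit the authors did not name, and the columns of their own comparison (log2 and linear fold change, p-value, false discovery rate, Bonferroni-adjusted p-value). The comparison columns were not used, and a second table of selected genes was left out. No values of single samples were at hand, so the planned tests between groups were not run.

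The Max group mean was read as deposited, with no pseudocount and no filter. Summed exon lengths, loci and start codons came from GENCODE vM21 on GRCm38 (72 of the 78 loci identical), promoter windows from RefSeq (GRCm38.p6), where several windows of a gene counted once. The unit was settled from the product of level and exon length, rounded to 6 decimals, keeping values shared by at least 100 genes. Copies were sought with BLAST 2.17.0. Values were computed in Python 3.11.15 (scipy 1.17.1, numpy 2.4.6, pandas 2.3.3). The motif search, the name rule and the summing of exon lengths were checked on made-up input, and the summaries were not.

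The members and lists were chosen with earlier results of these data known. Named genes were the 10 highest and 10 lowest of each subunit, the Mrps18 paralogs, adjacent members, and the highest and lowest gene of each other list. Other genes named in the text were chosen after their values were seen. Groups came from the treatment labels. Alternatives were a minimum level of 0.1 or 1, a geometric mean, the added names, a shorter window and shorter motifs. Subunits by structure, the mRNA length scale, the motif background of genes of level 1 or more and leaving out genes with copies were added after the data were seen. Amino acid sequences were not analysed here.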

Additional observations from a re-analysis of the deposited data

How the results depend on the processing

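No paired analysis was possible because single-sample values were not at hand, and for the same reason leaving out replicates and other count models were not run. The median level of the 78 genes, 2.76, was also 2.76 with a minimum of 0.1, 3.34 with a minimum of 1, 2.90 as a geometric mean, 2.79 with the proteins under other names and, chosen after seeing the data, 3.01 without genes that have copies. Scaled to the mRNA with the longest coding sequence, also chosen after seeing the data, the medians were 4.83 for all, 5.62 for the large and 3.07 for the small subunit, so the subunits kept their order (ratio 1.83). The percentile of the median was 53.2 among genes of level 0.1 or more and 28.1 among those of level 1 or more, since fewer low genes remain in those sets. With 1 letter fewer, ETS (CCGGAA) matched 58.0% of windows (35.5% of those of genes of level 1 or more) and Sp1 (GGCGG) 87.0% (86.1%), so the lower Sp1 share of these genes was lost. YY1 (AGATGGC) still matched 17.4%, with an interval of 9.32 to 28.4%, but the share of genes of level 1 or more rose to 9.13%. For NRF1 (CGCATGC) the shares were 11.6% and 7.70%. In windows from 100 bases before the start, TATAAA matched 1.45%. The counting depth limits the lowest genes little, but the spread between samples is unknown for every level.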

Other observations

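The 4 genes with the lowest levels among the 78 differed in what their annotation holds around them. Mrps25 (0.715) shared 4770 bases with Nr2c2 (5.34) on the opposite strand, Mrpl47 (0.600) shared 1577 bases with Actl6a (3.97) and 616 with Ndufb5 (2.44) on the opposite strand, and Mrps6 (0.683) shared 29152 bases with Slc5a3 (0.0916) on its own strand. Mrps10 (0.534) overlapped no protein-coding gene but had the long summed exon length of 8079 bases. Mrpl33, with a level of 10.6, had an annotated locus of 67450 bases that held Gm43809 (0.703) on the same strand and shared 39946 bases with Rbks (2.93) on the other. Whether any of these features bears on the levels was not tested.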
